A study of Mus musculus with 6 samples.

Results

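The genes described here are 48 regulators of the cell cycle: the cyclins, the cyclin-dependent kinases (Cdks) and their inhibitors, the E2f transcription factors and their partners, the pocket proteins of the Rb family, the MuvB subunits with B-Myb and Foxm1, the Myc family, and the enzymes Cdc25, Wee1 and Skp2. The list names them by function and uses no measured value as a criterion, though it was drawn up with earlier results of these data known. All 48 were found among the 46983 genes counted, and 46 passed the filter on low counts. Ccna1 and Cdkn2a did not. RNAseq was performed on GFP+ neural crest cells (NCCs) sorted by FACS from E11.25 mouse embryos, 3 control and 3 deficient in BAF155 and BAF170 (deficient below). BAF155 and BAF170, encoded by Smarcc1 and Smarcc2, are core subunits of the BAF chromatin remodeling complex. Embryos of both groups carried the Cre allele (Wnt1Cre/+) and the mTmG reporter (Rosa26mTmG/+), in which Cre turns on GFP. Controls had 1 floxed copy each of BAF155 and BAF170 (flox/+ at both genes), so they had lost a copy of each in the recombined cells, and deficient embryos were flox/flox at both. Wnt1 is expressed in the dorsal neural tube as well as in the NCCs that leave it, so the sorted cells are not restricted to NCCs.

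Cyclins activate the Cdks that drive a cell from one phase of the cell cycle to the next. D-type cyclins with Cdk4 or Cdk6, and then E-type cyclins with Cdk2, phosphorylate the pocket proteins and release E2f factors, which turn on the genes for DNA synthesis. A-type and B-type cyclins act later, with Cdk2 and Cdk1, and the Cdk inhibitors hold all of these kinases back. In the embryo, NCCs divide as they migrate and leave the cycle as they differentiate.

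Counts on genes ran from 8191219 to 11661941 in the control libraries and from 12633319 to 19808620 in the deficient ones, so every deficient library was deeper. Smarcc1 had 42.1, 55.0 and 35.1 CPM (counts scaled to the TMM-normalized library size) among the controls and 29.4, 26.4 and 24.5 CPM among the deficient libraries. Smarcc2 differed by a log2 fold change of −0.11, with an adjusted p of 0.251 by edgeR. Counts per gene do not separate the floxed exons from the others. The libraries also held the RNA of other cell types, so the levels given below are those of the mixture and not of NCCs alone. The 12 macrophage markers summed to between 12124 and 14056 CPM in the controls and between 14188 and 15476 CPM in the deficient libraries, and all 12 had positive log2 fold changes. The 60 markers of embryonic cells (crest mesenchyme, sensory and autonomic neurons, glia and neural tube) summed to between 276 and 524 CPM in the controls and between 175 and 258 CPM in the deficient libraries, and all 47 tested ones had negative log2 fold changes. No marker of either kind was at 0 in all libraries. The part of these markers in the results below was not tested. In such bulk samples, fewer cells of a type and less RNA per cell cannot be told apart.

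Of the 46 genes tested, 5 were called lower in the deficient libraries and 0 higher. The genes called were Ccne2 and Ccna2, the cyclins of the start and the course of S phase, the transcription factor Mycn, the mitotic inhibitor Wee1 and Skp2, which marks the Cdk inhibitor p27 for degradation. A gene was called when its Benjamini-Hochberg adjusted p over all tested genes was at most 0.1 by edgeR's quasi-likelihood test, its log2 fold change at least 0.58 in size and its mean at least 2 CPM. Over all 13961 tested genes, 4.88% were called lower and 0.0573% higher. By the adjusted p alone, the same 5 genes were lower, against 7.75% of all genes. Another 3, Cdkn1a, Cdkn2d and Rbl1, were higher, against 4.18% of all genes, with changes under the fold threshold. An unadjusted p under 0.05 was found in 16 of the 46 genes, against 27.3% of all genes. Such a p together with a lower level was found in 12 of the 46, against 15.2% of all genes. DESeq2 and limma-voom called 5 and 6 of the genes lower, against 6.26% and 5.04% of all genes, and also 0 higher. Wee1 was not called by DESeq2, with library totals in place of TMM or without the filter on low counts, and Mycn was not called by limma-voom. Over the 12 alternatives, the adjusted p ran from 0.0479 to 0.397 for Wee1 and from 0.0033 to 0.970 for Mycn. With library totals Cdkn1a, Cdkn2d and Rbl1 did not pass, and by DESeq2 Cdkn2d did not. The groups did not overlap in 9 genes that were lower, against 16.4% of all genes, and in 5 that were higher, against 15.0%. Not one of the 8 genes that passed the adjusted p did so without control replicate 1, without control replicate 2, without deficient replicate 2 or without deficient replicate 3. Cdkn1a did not pass without deficient replicate 1 either. Without control replicate 3, 9 of the 46 genes were called lower, against 8.45% of all genes, and without deficient replicate 1, 12 were, against 7.24%.

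The log2 fold change was negative in 32 of the 46 genes (69.6%), against 52.3% of all genes, and its median was −0.26, against −0.02 over all genes. With the libraries scaled to the embryonic markers, an alternative that moves the median of all genes to 0.98, the median of the 46 genes was 0.74, only Ccne2, E2f7 and Mycn had negative values, and none of the 5 genes was called lower. Relative to the median of all genes, the 46 genes had a median of −0.24 under both scalings, and the same number, 32, lay below it. Each of the 9 role groups described below also had the same number of members below that median under both scalings. The scaling shifts all genes by nearly the same amount, and their median with them, so this agreement was fixed in advance. Directions without further mention are those with TMM.

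**Figure D1:**
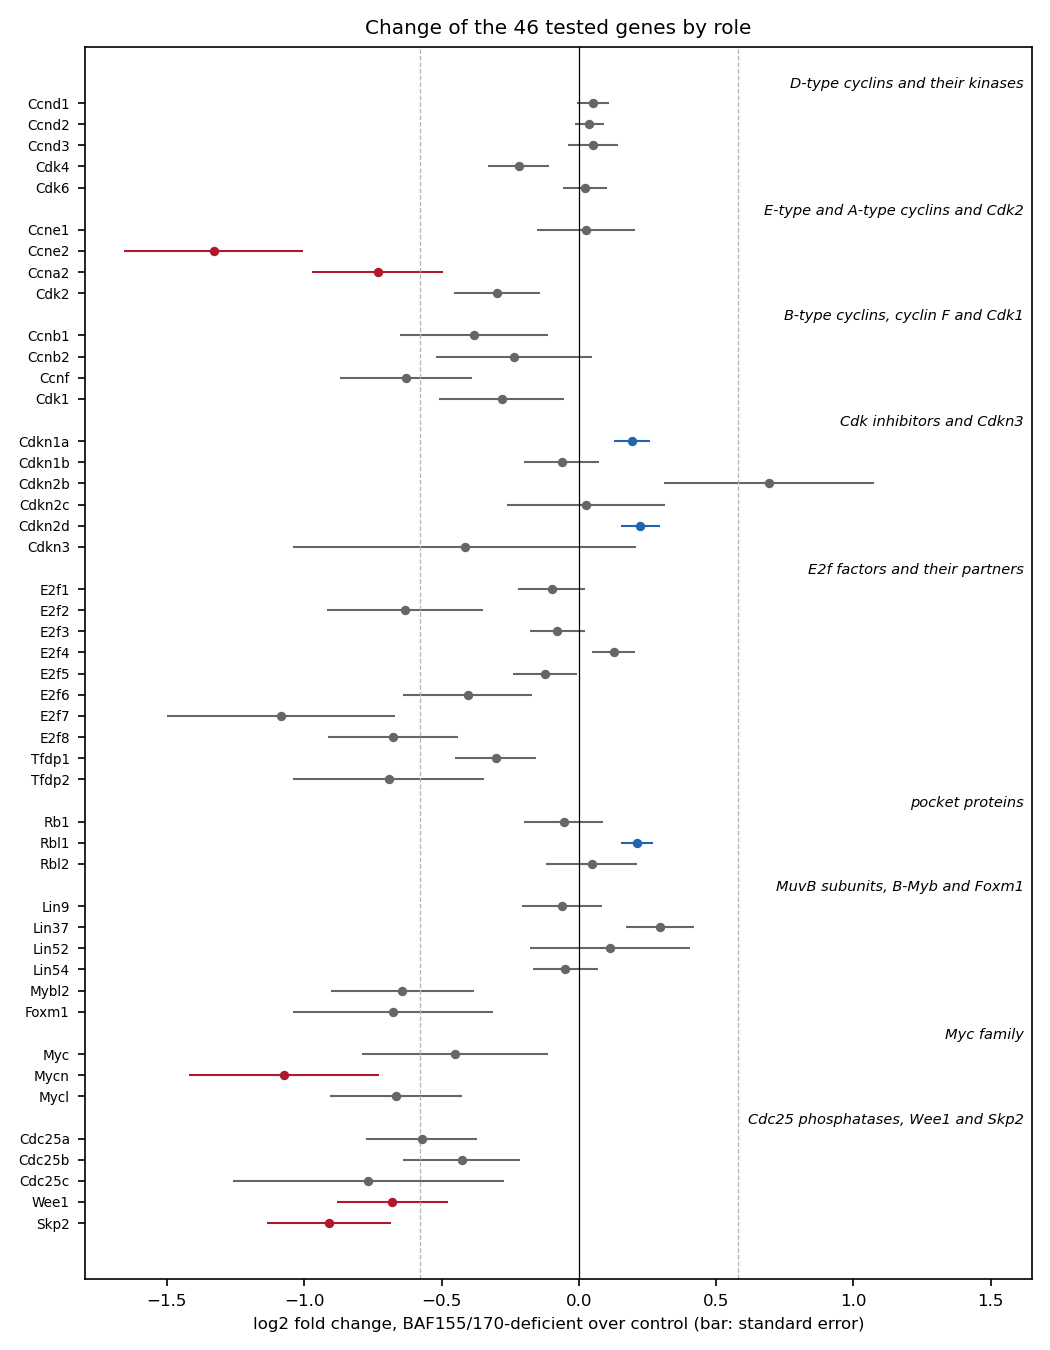
Log2 fold change of the 46 tested genes, deficient over control, grouped by role (points, with bars for the standard error; dashed lines at 0.58 in either direction). Red points are the 5 called genes, which lie between −1.33 and −0.68, and blue points are Cdkn1a, Cdkn2d and Rbl1, between 0.19 and 0.22. Scaled to the embryonic markers instead, only Ccne2, E2f7 and Mycn were negative.

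The D-type cyclins and their kinases had no member that passed the adjusted p. Ccnd1, which encodes cyclin D1 (chr7:144929931-144939925), had 81.7, 82.0 and 85.1 CPM among control replicates 1 to 3, against 86.7, 82.7 and 88.6 CPM among deficient replicates 1 to 3. Ccnd2 (chr6:127125162-127152193) had 242, 241 and 247 CPM among the controls and 250, 252 and 248 CPM among the deficient libraries. Ccnd3 had 28.4, 33.6 and 33.6 CPM among the controls and 34.7, 33.8 and 30.8 CPM among the deficient libraries. The groups overlapped for Ccnd1 and Ccnd3, while all deficient values of Ccnd2 lay just above all control values. The 95% intervals of the log2 fold change were −0.08 to 0.18 for Ccnd1, −0.08 to 0.15 for Ccnd2 and −0.15 to 0.25 for Ccnd3, so they reach neither threshold of 0.58. Among the 687 tested genes with a mean of at least 200 CPM, 95.1% had a positive log2 fold change, with a median of 0.19, and the value of Ccnd2, 0.04, was above that of only 37 (5.39%). Cdk4, the kinase that cyclin D activates, was at a log2 fold change of −0.22 (standard error, SE, 0.11, adjusted p = 0.231 by edgeR), and Cdk6 one of 0.02. Per kilobase of exon, the controls had 25.8 CPM of Ccnd2, 17.6 CPM of Ccnd1 and 3.63 CPM of Ccnd3, and the deficient libraries 26.5, 18.3 and 3.77 CPM.

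In the E-type and A-type cyclins with Cdk2, 2 of 4 tested genes fell. Ccne2, which encodes cyclin E2 (chr4:11191351-11204779), had 3.51, 4.55 and 2.87 CPM among the controls and 1.96, 1.16 and 1.23 CPM among the deficient libraries. Every deficient value lay below every control value. Its log2 fold change was −1.33 (SE 0.33, adjusted p = 0.0676 by edgeR), with a wide 95% interval of −2.05 to −0.61. The counts of Ccne2 were low, at 33, 34 and 35 in the controls and 25, 19 and 26 in the deficient libraries. Its paralog Ccne1 had 8.72, 10.8 and 7.88 CPM among the controls and 10.7, 7.88 and 9.26 CPM among the deficient libraries, which overlap, and a log2 fold change of 0.03 with a 95% interval of −0.36 to 0.42. The ratio of Ccne2 to Ccne1 lay between 0.365 and 0.420 in the controls and between 0.133 and 0.184 in the deficient libraries. This pair was 1 of 12 compared, chosen after the values were seen. Its exact two-sided permutation p was 0.1, as low as groups of 3 can reach. That p is not adjusted over the 12 pairs, and adjustment could not lower it. Ccna2, cyclin A2 (chr3:36564865-36572150), had 10.5, 9.77 and 8.04 CPM among the controls and 7.91, 5.13 and 4.18 CPM among the deficient libraries. The highest deficient value, that of replicate 1, was close to the lowest control value. Its log2 fold change was −0.73 (SE 0.24, adjusted p = 0.0965 by edgeR). Cdk2, the kinase of both cyclins, had a log2 fold change of −0.30 (adjusted p = 0.244 by edgeR) with groups that did not overlap. Ccna1, known from the male germ line, had 0.244 CPM or less in every library.

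The B-type cyclins Ccnb1 and Ccnb2, their kinase Cdk1, which starts mitosis, and Ccnf, which serves a ubiquitin ligase in place of a Cdk, had log2 fold changes from −0.63 to −0.23. None of the 4 passed the adjusted p. Cdk1 had 6.70, 8.70 and 6.07 CPM among the controls and 7.52, 4.77 and 5.36 CPM among the deficient libraries, where replicate 1 lay within the control values. The lowest adjusted p of the group was that of Ccnf, 0.125 by edgeR, with a log2 fold change of −0.63. Ccnf was called lower by limma-voom (adjusted p = 0.0959) but not by DESeq2 (adjusted p = 0.145).

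Among the Cdk inhibitors, Cdkn1a and Cdkn2d rose by small amounts. Cdkn1a, which encodes the p53-induced inhibitor p21 (chr17:29090976-29100727), had 341, 338 and 383 CPM among the controls and 399, 398 and 419 CPM among the deficient libraries. Cdkn2d, which encodes p19, an inhibitor of Cdk4 and Cdk6 (chr9:21288410-21291407), had 57.5, 54.4 and 62.5 CPM among the controls and 64.7, 69.0 and 70.4 CPM among the deficient libraries. In both genes every deficient value lay above every control value. The log2 fold change was 0.19 for Cdkn1a (SE 0.065, adjusted p = 0.0995 by edgeR) and 0.22 for Cdkn2d (SE 0.072, adjusted p = 0.0940 by edgeR). The rise of Cdkn1a exceeded that of 58.7% of the 687 genes at 200 CPM or more, whose quartiles were 0.16 and 0.21, and lay within the range of the 12 macrophage markers, 0.15 to 0.25. The rise of Cdkn2d exceeded that of 91.1% of the 2607 genes at 50 CPM or more, and it also lay within the range of the macrophage markers. Per kilobase of exon, Cdkn1a had the highest level of all members, at 99.6 CPM for the controls and 114 CPM for the deficient libraries.

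Cdkn1b, which encodes p27, the substrate of Skp2, had 21.1, 20.5 and 17.5 CPM among the controls and 16.0, 22.5 and 17.8 CPM among the deficient libraries. Its values overlapped, with a log2 fold change of −0.06 (95% interval −0.36 to 0.24). Cdkn2b, an inhibitor of Cdk4 and Cdk6, had 1.38, 1.20 and 1.40 CPM among the controls and 3.13, 1.34 and 2.09 CPM among the deficient libraries, of which replicate 2 lay among the controls. Its log2 fold change of 0.69 did not pass (SE 0.38, adjusted p = 0.264 by edgeR). Cdkn2c, of the same family, had 2.98, 2.27 and 2.79 CPM among the controls and 3.45, 2.14 and 2.71 CPM among the deficient libraries, with no separation. Cdkn2a, the neighbour of Cdkn2b in the genome, which encodes p16 and p19Arf, was near the limit of detection, with 0.134 to 0.532 CPM in the controls and 0.244 to 0.470 CPM among the deficient ones, from 27 counts in all. Cdkn3, a phosphatase of Cdks, had 1.60, 0.535 and 0.821 CPM among the controls and 1.41, 0.244 and 0.665 CPM among the deficient libraries, which overlap.

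No E2f factor passed the adjusted p, and the negative values were largest in E2f7, E2f8 and E2f2. E2f7 and E2f8 encode the atypical E2fs, which bind DNA without a Dp partner and repress E2f targets, and E2f1, E2f2 and E2f3 encode the activators. E2f7 had 4.89, 7.36 and 3.78 CPM among the controls and 4.31, 1.77 and 1.57 CPM among the deficient libraries, where replicate 1 overlapped the controls. E2f8 had 5.11, 6.96 and 8.95 CPM among the controls and 4.07, 4.09 and 4.99 CPM among the deficient libraries, and E2f2 had 3.62, 2.68 and 2.79 CPM against 2.27, 1.71 and 1.90 CPM. For E2f8 and E2f2 each deficient value was under each control value. The log2 fold changes were −1.08 for E2f7 (SE 0.41, adjusted p = 0.132 by edgeR), −0.68 for E2f8 (adjusted p = 0.106) and −0.63 for E2f2 (adjusted p = 0.177). DESeq2 and limma-voom called E2f7 lower.

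The other E2f factors differed less. E2f1 had 14.7, 15.9 and 16.4 CPM among the controls and 16.3, 14.7 and 13.1 CPM among the deficient libraries. E2f3 had 21.5, 24.3 and 20.7 CPM among the controls and 22.4, 20.4 and 20.04 CPM among the deficient libraries. The groups overlapped in both, with log2 fold changes of −0.10 and −0.08. The repressive E2f4, E2f5 and E2f6 were also without a passing change. E2f4 had 35.9, 41.6 and 37.8 CPM among the controls and 41.7, 40.3 and 43.6 CPM among the deficient libraries, the only positive log2 fold change of the E2f factors and their partners (0.13). E2f5 had 14.4, 14.6 and 15.4 CPM against 14.7, 13.5 and 12.7 CPM, and E2f6 had 8.72, 7.76 and 6.73 CPM against 7.99, 4.52 and 5.13 CPM. Both sets of values overlap. The Dp partners, which E2f1 to E2f6 need for binding, had log2 fold changes of −0.30 (Tfdp1, adjusted p = 0.210 by edgeR) and −0.69 (Tfdp2, adjusted p = 0.250).

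Of the pocket proteins, Rbl1 rose. Rbl1, which encodes p107 and is itself a known E2f target (chr2:157145893-157204534), had 76.0, 72.8 and 76.9 CPM among the controls and 86.5, 88.1 and 87.0 CPM among the deficient libraries. The lowest deficient value was above the highest control value, and the spread within each group was small. Its log2 fold change was 0.21 (SE 0.058, adjusted p = 0.0775 by edgeR), above that of 86.3% of the 2607 genes at 50 CPM or more. This value also lay within the range of the 12 macrophage markers, 0.15 to 0.25. Rb1, the retinoblastoma gene, and Rbl2, which encodes p130, had log2 fold changes of −0.06 (95% interval −0.37 to 0.26) and 0.05 (−0.32 to 0.41). Per kilobase of exon the controls had 12.6 CPM of Rbl1, 1.74 CPM of Rb1 and 1.45 CPM of Rbl2. The ratio of Rbl1 to Rb1 lay between 6.68 and 7.50 in the controls and between 8.10 and 9.35 in the deficient libraries. It was the second of the 12 pairs whose groups did not overlap, with the same permutation p, also not adjusted.

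**Figure D2:**
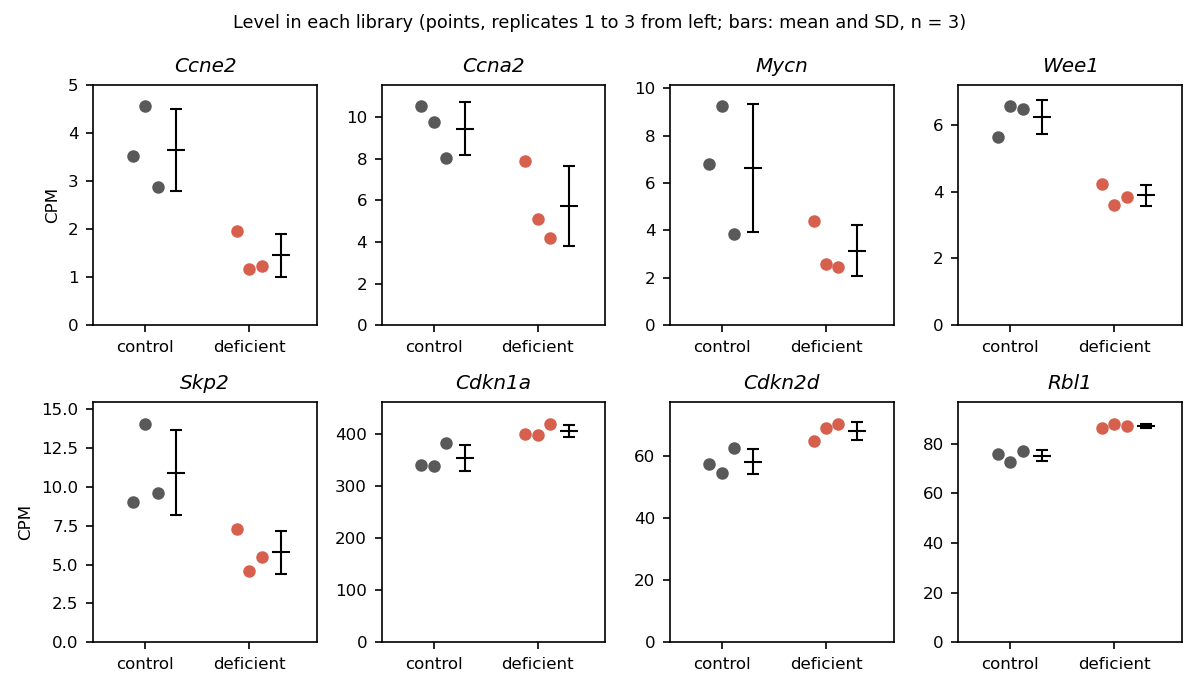
CPM in each library of the 8 genes with an adjusted p of at most 0.1 (points, replicates 1 to 3 from left; bars, mean and SD of 3 libraries; axes start at 0). In Ccne2, Ccna2, Wee1 and Skp2 all deficient values lie below the controls, in Mycn deficient replicate 1 (4.39 CPM) lies above control replicate 3 (3.86 CPM), and in Cdkn1a, Cdkn2d and Rbl1 all deficient values lie above the controls.

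MuvB is the core that joins either E2f4 and a pocket protein to repress cell cycle genes in resting cells, or B-Myb (Mybl2) and Foxm1 to activate mitotic genes. Its subunits Lin9, Lin37, Lin52 and Lin54 had log2 fold changes from −0.06 to 0.30, none of which passed. Lin37 had the largest, with groups that did not overlap (12.4, 11.5 and 10.7 CPM among the controls and 15.0, 13.4 and 14.1 CPM among the deficient libraries, adjusted p = 0.155 by edgeR). The activators were lower in the means, with log2 fold changes of −0.64 for Mybl2 and −0.68 for Foxm1, and did not pass (adjusted p = 0.141 and 0.272 by edgeR). For Mybl2 the deficient values, 3.84, 2.63 and 2.33 CPM, lay below the control values, 4.25, 4.55 and 4.76 CPM, while those of Foxm1 overlapped.

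In the Myc family, whose products promote growth and entry into the cycle, Mycn fell. Mycn, the family member best known from neural progenitors and neural crest tumours (chr12:12936093-12941914), had 6.81, 9.23 and 3.86 CPM among the controls and 4.39, 2.57 and 2.47 CPM among the deficient libraries. Control replicate 3 was below deficient replicate 1, so the groups overlapped. Its log2 fold change was −1.07 (SE 0.34, adjusted p = 0.0965 by edgeR). Mycl had 8.61, 10.8 and 6.48 CPM among the controls and 6.97, 4.34 and 4.99 CPM among the deficient libraries, with a log2 fold change of −0.67 that did not pass (adjusted p = 0.114 by edgeR). Myc had a log2 fold change of −0.45 (adjusted p = 0.417). In Mycn, control replicate 2 was the highest and control replicate 3 the lowest of the controls, as in the sum of the embryonic markers. Of the other called genes, Ccne2 had the same order of controls, while Ccna2, Wee1 and Skp2 did not.

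Among the enzymes that set Cdk activity, Wee1 and Skp2 fell. Wee1, the kinase that inhibits Cdk1 and Cdk2 (chr7:110122046-110143286), had 5.64, 6.56 and 6.48 CPM among the controls and 4.23, 3.60 and 3.85 CPM among the deficient libraries. Skp2, the F-box protein that recognizes p27 (chr15:9111985-9155425), had 9.04, 14.0 and 9.60 CPM among the controls and 7.28, 4.58 and 5.51 CPM among the deficient libraries. In neither gene did the groups overlap. The log2 fold change was −0.68 for Wee1 (SE 0.20, adjusted p = 0.0863 by edgeR) and −0.91 for Skp2 (SE 0.22, adjusted p = 0.0686 by edgeR). The Cdc25 phosphatases, which undo the work of Wee1, had log2 fold changes of −0.57 (Cdc25a), −0.43 (Cdc25b) and −0.77 (Cdc25c), with adjusted p from 0.113 to 0.342 by edgeR.

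The size and sign of the changes went with the level in CPM, which is not per length and so follows the number of counts. Of the 10 members with a mean of at least 20 CPM, a limit chosen after the values were seen, 8 had a positive log2 fold change and the median was 0.05. Of the 36 below it, 30 (83.3%) had a negative one, the median was −0.41, and all 5 called genes were among them. The same held for all tested genes, of which 27.4% were negative at 20 CPM or more (median 0.10) and 67.2% below it (median −0.16). The embryonic markers had a median log2 fold change of −1.13. Only 1 of the 46 genes, Ccne2, had a lower value than that median.

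**Figure D3:**
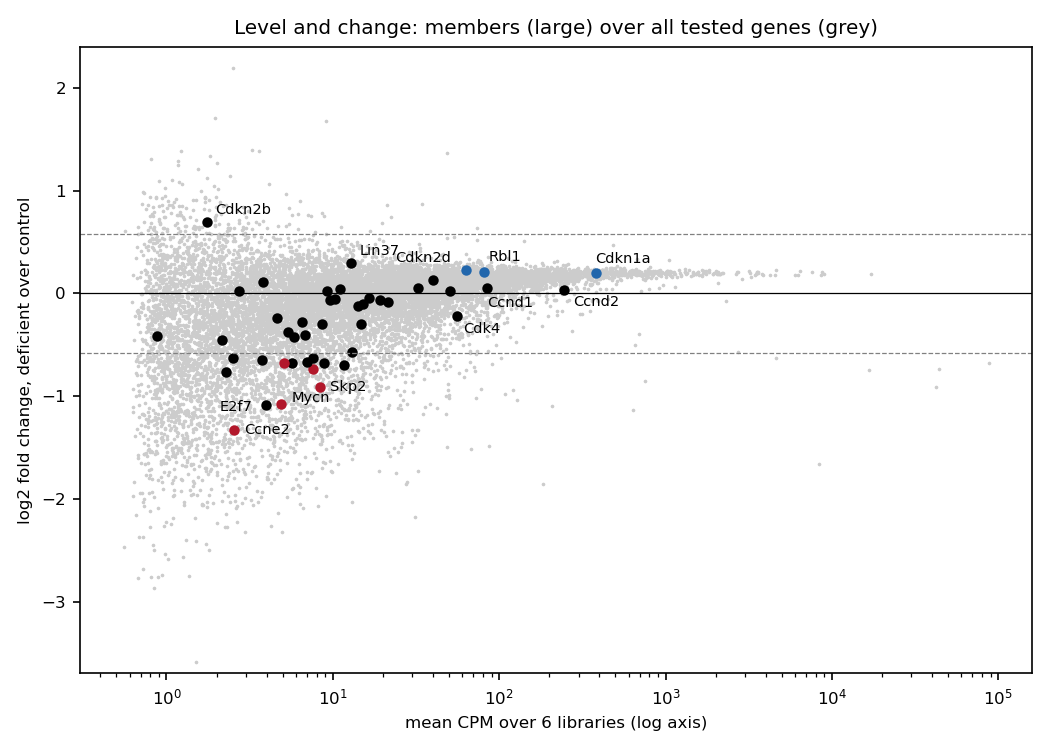
Mean CPM over the 6 libraries (log axis) against the log2 fold change, deficient over control, for the 46 genes (large points; red, called lower; blue, adjusted p of at most 0.1 and higher) over all tested genes (grey). Members at 20 CPM or more lie between −0.22 and 0.22, and those below it between −1.33 and 0.69.

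Within the groups, some libraries held high or low values over many of the genes. Deficient replicate 1 had the highest deficient value in 29 of the 46 genes (63.0%), against 36.0% of all genes, and also the highest sum of embryonic markers of the deficient libraries. Control replicate 2 had the highest control value in 21 (45.7%, against 39.2% of all genes) and control replicate 3 the lowest in 24 (52.2%, against 38.4%), and these were the controls with the highest and the lowest embryonic sum. Depth followed the same order, as control replicate 2 had the fewest and control replicate 3 the most counts of the controls. The 10 highest genes held 35.0% and 21.8% of their counts. Deficient replicate 1 had the fewest counts of its group, with 23.4% in the 10 highest genes, against 22.8% and 16.2% in replicates 2 and 3. Whether the embryonic sums, the depth or this share played a part was not tested.

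**Figure D4:**
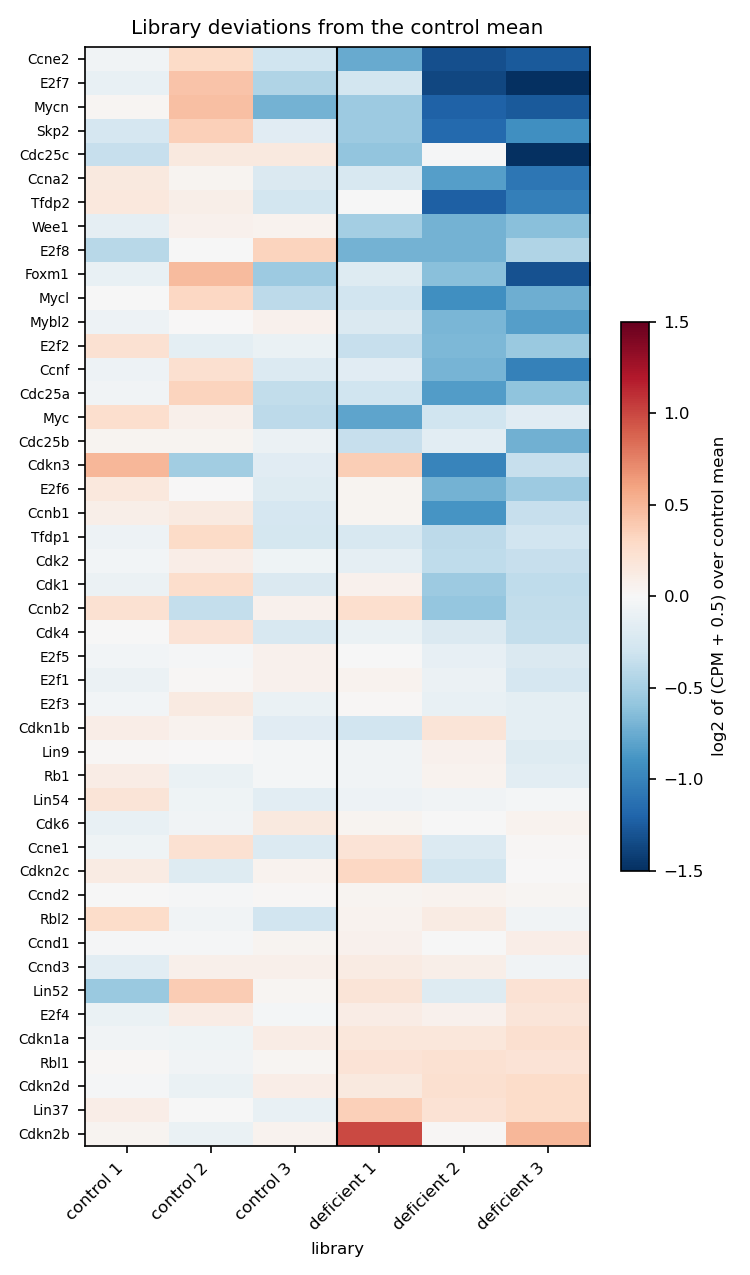
Deviation of each library from the control mean, as log2 of (CPM + 0.5) over the control mean, for the 46 genes in order of their log2 fold change, with the 3 control libraries on the left and the 3 deficient ones on the right (blue, lower; red, higher; colour scale to 1.5 in either direction). Deficient replicate 1 is nearer to the controls than deficient replicates 2 and 3 in most of the genes at the top, and control replicates 2 and 3 deviate in opposite directions in Mycn.

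Other genes of the pathway were counted from lists by function. Over all 7 lists, 7 of 107 tested genes were called lower and 0 higher, 80 had negative log2 fold changes and the median was −0.30, where 4.88% of all tested genes were called lower, 52.3% were negative and the median was −0.02. Skp1 was not matched by its symbol. Of 30 genes of origin licensing and the replication fork, 3 were called lower and 25 were negative, with a median of −0.34. Cdc6, the loader of the MCM helicase, fell by 1.15 on the log2 scale (adjusted p = 0.0647 by edgeR), and the helicase subunit Mcm6 fell by 0.45 (adjusted p = 0.0647). Pcna, the sliding clamp and the gene of the list with the highest mean CPM, had a log2 fold change of 0.17 (adjusted p = 0.101). Of 8 genes of nucleotide supply none was called, 6 were negative and the median was −0.41. Tyms, thymidylate synthase, had a log2 fold change of −0.60 (adjusted p = 0.103), Rrm2, the regulated subunit of ribonucleotide reductase, −1.03 (adjusted p = 0.129) and Dck, deoxycytidine kinase, 0.15 (adjusted p = 0.142).

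Of 31 mitotic genes, 2 were called lower, 29 were negative and the median was −0.54. The called genes were the kinesin Kif2c (−1.03, adjusted p = 0.0830 by edgeR) and the checkpoint kinase Bub1b (−0.67, adjusted p = 0.0928), while the spindle factor Tpx2, with the highest mean CPM, had a log2 fold change of 0.16 (adjusted p = 0.144). Among 13 other Cdk partners and inhibitors, with a median of 0.03, 1 was called: Cdk8, the kinase of the Mediator complex, had 22.1, 22.3 and 21.9 CPM among the controls and 16.8, 12.8 and 14.7 CPM among the deficient libraries (log2 fold change −0.59, adjusted p = 0.0483). Cdkn1c, the p57 inhibitor, had 49.2, 66.2 and 39.7 CPM among the controls and 39.2, 35.3 and 34.1 CPM among the deficient libraries, without passing (−0.50, adjusted p = 0.127). Cdk9, a kinase of transcription elongation with the highest mean CPM of that list, had a log2 fold change of 0.17 (adjusted p = 0.138).

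Of 10 genes of cyclin and E2f degradation none was called, with a median of −0.09. Anapc1, a subunit of the anaphase-promoting complex with the highest mean CPM of the list, passed the adjusted p alone (−0.32, adjusted p = 0.0988 by edgeR), and Fbxo5, an inhibitor of that complex, did not (−0.88, adjusted p = 0.121). Of 8 Myc partners and antagonists, with a median of 0.01, the antagonist Mxd4 was called lower (−0.60, adjusted p = 0.0701), the antagonist Mnt rose by less than the fold threshold (0.28, adjusted p = 0.0780) and Mxd1, with the highest mean CPM, did not pass (0.18, adjusted p = 0.114). Of 7 genes of the p53 axis, with a median of 0.11, none was called. The p53 inhibitor Mdm4 passed the adjusted p alone (−0.23, adjusted p = 0.0948), and Mdm2, a p53 target like Cdkn1a and the highest in mean CPM, had a log2 fold change of 0.18 (adjusted p = 0.123).

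The promoters of the members were searched for 4 motifs, over the 250 bases before the start given by RefSeq, on both strands. Entries were matched for 36 of the 48 genes. Ccnd1, Ccnd2, Ccne2, Ccna2, E2f4, E2f5, Rb1, Lin9, Foxm1, Myc, Cdc25c and Wee1 were not matched. An E2F core (TTNNCGC, with C or G at each N) was found in 13 of the 36 (36.1%), against 9.01% of 27025 genes and 16.1% of the tested ones. The CHR core (TTTGAA), an element bound by MuvB, was found in 13 (36.1%), against 18.3% of all genes and 12.9% of the tested ones. CCAAT was found in 20 (55.6%), against 37.5% of all genes and 40.6% of the tested ones. The E-box CACGTG, a site of the Myc family, was found in 5 (13.9%), against 6.86% and 9.76%. The median log2 fold change was −0.30 in the tested members with an E2F core and −0.16 in those without, against −0.05 and −0.01 over all tested genes. The same medians were −0.28 and −0.22 for the CHR core, −0.30 and −0.10 for CCAAT, and −0.08 and −0.30 for the E-box, where members with the motif had the higher median. A match is a description of the letters and not a site of binding.

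The promoters of Mycn (chr12:12941915-12942086), E2f7 (chr10:110745189-110745438), E2f8 (chr7:48881597-48881846), Rbl1 (chr2:157204535-157204784) and Cdk1 (chr10:69352939-69353162) hold E2F cores and belong to genes with different changes, from −1.08 for E2f7 to 0.21 for Rbl1. They are given from RefSeq (GRCm38.p6), 5′ to 3′ on the gene's strand (plus for E2f7, minus for the others), without the bases inside the GENCODE gene, and capitals mark the E2F and CHR cores.
Mycn: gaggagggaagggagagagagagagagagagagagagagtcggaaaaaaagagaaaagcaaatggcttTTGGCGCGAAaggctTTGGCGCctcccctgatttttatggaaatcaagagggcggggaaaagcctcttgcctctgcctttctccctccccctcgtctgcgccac
E2f7: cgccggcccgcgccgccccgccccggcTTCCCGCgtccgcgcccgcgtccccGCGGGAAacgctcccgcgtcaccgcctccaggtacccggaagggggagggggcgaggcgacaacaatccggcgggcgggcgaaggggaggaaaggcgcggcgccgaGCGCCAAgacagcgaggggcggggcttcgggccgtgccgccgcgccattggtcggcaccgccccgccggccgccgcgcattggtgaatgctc
E2f8: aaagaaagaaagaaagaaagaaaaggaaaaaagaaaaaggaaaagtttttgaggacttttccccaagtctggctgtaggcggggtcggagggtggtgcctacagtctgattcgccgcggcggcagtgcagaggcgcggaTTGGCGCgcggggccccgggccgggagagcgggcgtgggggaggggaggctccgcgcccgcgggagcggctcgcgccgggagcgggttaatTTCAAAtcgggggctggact
Rbl1: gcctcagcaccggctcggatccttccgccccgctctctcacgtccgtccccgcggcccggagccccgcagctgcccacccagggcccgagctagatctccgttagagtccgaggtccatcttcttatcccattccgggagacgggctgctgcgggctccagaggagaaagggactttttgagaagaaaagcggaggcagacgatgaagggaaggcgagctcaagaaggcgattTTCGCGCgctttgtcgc
Cdk1: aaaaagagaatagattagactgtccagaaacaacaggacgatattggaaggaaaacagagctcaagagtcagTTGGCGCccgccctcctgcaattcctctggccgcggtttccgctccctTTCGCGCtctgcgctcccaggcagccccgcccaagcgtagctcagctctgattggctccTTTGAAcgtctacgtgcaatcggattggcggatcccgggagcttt
Counted from the RefSeq start, Mycn has E2F cores at −182 to −176 and, on the other strand, at −179 to −173, which overlap, and the third at −167 to −161. A CHR core of Mycn at −14 to −9 lies in the stretch that is not printed. E2f7 has 3, at −223 to −217, −198 to −192 and −92 to −86. E2f8 has 1 at −111 to −105, with a CHR core at −20 to −15, and Rbl1 has 1 at −17 to −11. Cdk1 has E2F cores at −178 to −172 and −130 to −124 and CHR cores at −71 to −66 and, in the stretch not printed, at −15 to −10. Among the promoters printed, the E2F core was present before Mycn, which fell, before Rbl1, which rose, and before Cdk1, which did not pass. They are a selection from the 13 members with an E2F core, whose tested members had a median log2 fold change of −0.30. Whether the core had a part in the changes was not tested.

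Some counts could hold reads of neighbours. Of the 48 genes, 28 overlap another annotated gene, 7 of them on the same strand and 21 only on the opposite strand. Overlap was taken between whole gene spans, introns included, so it need not mean shared exons. The 7 are Ccnf, Tfdp2, Rb1, Lin54, Mybl2, Foxm1 and Cdc25a. Of these, only Foxm1 overlaps protein-coding genes on its own strand, Tex52 and Gm44596. Ccne2 overlaps Ints8, Ccna2 overlaps Exosc9, Wee1 overlaps an antisense gene and Skp2 overlaps Lmbrd2, all on the opposite strand. The libraries were strand-specific, but the strand setting of the counting is not given in the sources used here, so the counts of these genes are uncertain to that extent.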

How the data were processed

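RNAseq of 3 control and 3 deficient (BAF155 and BAF170) libraries, each from separate embryos according to the methods, was analysed. The authors deposited raw counts per gene, made from strand-specific poly(A) paired-end libraries with FastQC 0.11.7, cutadapt 1.18, STAR (GRCm38) and featureCounts. The annotation release, the strand setting and the treatment of multimapping reads are not given in the sources used here. Of 46983 Ensembl identifiers, 46488 have a name in GENCODE M21 (matched without version).

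The analysis used edgeR 4.0.16 in R 4.3.3: filterByExpr (minimum count 10, minimum total count 15), TMM, and a robust quasi-likelihood fit with condition as its only term. The common biological coefficient of variation was 12.8%. Calls followed the thresholds of the study, which are 0.1 for the adjusted p (Benjamini-Hochberg over tested genes), 0.58 for the size of the log2 fold change and 2 CPM for the mean. P-values measure the spread between these libraries only. DESeq2 1.42.0, limma-voom (limma 3.58.1), library totals, scaling to 34 embryonic markers, no filter, a replicate block, a stricter adjusted p and each library left out in turn were run as alternatives. Simulated counts, with a log2 fold change of 1 set in 200 of 13961 genes, tested the fit, which recovered 92.5% with 6 false calls. Every simulated gene had the same biological variation, the common value, so these rates need not hold for the data. Summaries and figures were made with Python 3.11.15, pandas 2.3.3, numpy 2.4.6, scipy 1.17.1 and matplotlib 3.10.9.

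The members and lists were chosen with earlier results of these data known. Values in every library are given for members with an adjusted p of at most 0.1, D-type cyclins, Cdk inhibitors, E2f factors and the 5 members of highest mean CPM, and of each other list the 2 genes of lowest p and the 1 of highest mean CPM are named, besides Cdkn1c. Values in every library of Cdk1, Ccne1, Lin37, Mybl2, Mycl and Cdk8 are given by choice after they were seen. Median log2 fold changes of marker lists were −1.23 for mesenchymal crest, −1.22 for sensory neuron, −0.72 for autonomic, −0.98 for glial crest, −0.81 for neural tube, 0.19 for macrophage, 0.51 for neutrophil, −0.24 for erythroid and 0.06 for endothelial markers. No epithelial marker was tested.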

Additional observations from a re-analysis of the deposited data

How the results depend on the processing

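Over the 13961 genes, the 681 called lower became 94 and the 8 called higher became 0 with the adjusted p limit at 0.05 (edgeR), where 0 of the 46 members were called lower, although 16 members and 3813 genes had an unadjusted p under 0.05, and DESeq2 and limma-voom called 5 and 6 members lower at 0.1. Genes called higher numbered 15 by DESeq2 and 33 without the filter on low counts. Without that filter, 982 of 32523 genes and 10 of the 48 members were called lower, and 11 members passed the adjusted p in that direction. With library totals in place of TMM, 0 members passed it in the higher direction (edgeR, 14 members with an unadjusted p under 0.05). With each library left out in turn, genes called lower ran from 0 to 1219, genes called higher from 0 to 45, members called lower from 0 to 12, members that passed the adjusted p from 0 to 12 lower and from 0 to 3 higher, and the median of the members from −0.33 to −0.13. Unadjusted p under 0.05 was found in 10 to 20 members in these fits, and in 2200 to 4700 of the 14222 to 14430 genes tested. The cause was not tested.

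By the replicate numbers of the sample titles, which are used throughout, the deviations of same-numbered libraries correlated at 0.03, −0.03 and 0.29, so these numbers were not taken to pair the libraries. The sample descriptions number the deficient libraries differently, from 2 to 4. By those numbers only 2 pairs are shared, control replicate 2 with deficient replicate 1 (correlation 0.26) and control replicate 3 with deficient replicate 2 (0.00), and no block was fitted on them. Control replicate 1 correlated best with deficient replicate 2, control replicate 2 with deficient replicate 1 and control replicate 3 with deficient replicate 3. With the number of the titles as a replicate block, 1143 genes were called lower and 21 higher, 11 members were called lower and 13 passed the adjusted p in that direction.

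Scaled to the embryonic markers, an alternative that shifts every gene upward by construction, 58 genes were called lower and 9815 higher, 0 members lower and 27 higher, and the adjusted p alone was passed by 0 members lower and 28 higher (edgeR, 26 members with an unadjusted p under 0.05). The median of the members became 0.74, and values that changed sign were those of Skp2 (0.11), Cdc25c (0.21), Ccna2 (0.25), Tfdp2 (0.28), E2f8 (0.30), Wee1 (0.31), Mybl2 (0.32), E2f2 (0.36), Foxm1 (0.37), Mycl (0.37), Ccnf (0.37), Cdc25a (0.47), Cdkn3 (0.53), Cdc25b (0.57), E2f6 (0.58), Myc (0.61), Ccnb1 (0.62), Cdk2 (0.70), Ccnb2 (0.70), Cdk1 (0.73), Tfdp1 (0.74), Cdk4 (0.81), E2f5 (0.86), E2f1 (0.88), E2f3 (0.93), Rb1 (0.94), Lin9 (0.94), Lin54 (0.96) and Cdkn1b (0.96).

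Other changes of sign were near 0: Rb1 at 0.0012 and Lin54 at 0.014 with library totals, Lin54 at 0.0011 without the filter and Cdkn2c at −0.029 by limma-voom. Leaving out 1 library changed the sign of Ccnd3 (range −0.021 to 0.10), Cdk6 (−0.029 to 0.11), Ccne1 (−0.081 to 0.16), Cdkn1b (−0.21 to 0.033), Cdkn2c (−0.15 to 0.18), Cdkn3 (−1.07 to 0.10), Rb1 (−0.11 to 0.010), Rbl2 (−0.096 to 0.22), Lin9 (−0.13 to 0.0065), Lin52 (−0.13 to 0.35) and Lin54 (−0.13 to 0.067). Members under 3 CPM, such as Cdkn3, Cdkn2c and Myc, have wide intervals, and for them a change within the interval was not detectable at this depth. Ccne2, which was called lower, is also under 3 CPM, at a mean of 2.55 CPM over the libraries.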
